A study of Homo sapiens with 30 samples.

Results

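The cytosolic ribosomal protein genes encode the protein components of the large and small subunits of the ribosome that translates nuclear messages. They were chosen by symbol (RPL and RPS genes, RPLP0, RPLP1, RPLP2, RPSA and FAU, without pseudogenes, RPS6 kinases and RPS4Y) and by a mean of at least 10 CPM over all libraries (CPM being a gene's counts scaled to a library of fixed size). Of 85 such symbols, 80 genes met the level, 48 of the large and 32 of the small subunit, out of 63138 genes in all. Their levels were therefore used in the choice, and the family was chosen with earlier results of these data known. Just inside the level lay RPL17 (10.0 CPM), and just outside lay RPL36A (2.92 CPM) and RPS10 (1.81 CPM). Well below it were the tissue-restricted paralogs RPL39L (0.724 CPM), RPL3L (0.163 CPM) and RPL10L, for which the mean was 0 CPM. RPS10, RPL36A and RPL17 each share exonic sequence with a readthrough gene (RPS10-NUDT3, RPL36A-HNRNPH2 and RPL17-C18orf32), so their counts are uncertain. Other members also overlap exons of other genes. Among them are FAU with SYVN1 (21.6% of its exonic length) and RPL36 with HSD11B1L (17.6%), on the same strand. RPL10 overlaps DNASE1L1 (34.2%) on the opposite strand, and the strand setting of the counting is not given.

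RNA was sequenced from hCMEC/D3, an immortalised endothelial line from human brain microvessels that is grown as a stand-in for the blood-brain barrier. There were 10 groups of 3 libraries, all taken at 12 h. The direct groups were Control, kept in serum-free medium, and cells stimulated with 25 ng/mL of the cytokine tumour necrosis factor (TNF), with 10 ng/mL of interleukin 1 beta (IL1b), with 50 ng/mL of C5a, a fragment of complement, or with 200 nM of the hormone Epinephrine. The vesicle groups were made up of cells of the same line given extracellular vesicles, which had been enriched from medium of cells under each of those conditions. They carry the prefix EV- before the condition (EV-Control for vesicles of unstimulated cells). All groups come from 1 cell line, and nothing in the labels says that the 3 libraries of a group came from separate cultures, so p-values measure the spread between these libraries, which may be technical. Library totals ran from 16643961 to 22112326 counts. All 12 endothelial markers examined had a mean of at least 1 CPM, led by CDH5 (225 CPM). A mean of 1 CPM was reached by 1 of 7 microglia and leukocyte markers (CD14, 1.68 CPM), 1 of 5 astrocyte markers (GFAP, 3.61 CPM) and 1 of 5 neuron markers (SYT1, 2.01 CPM), with AIF1 at 0.00935 CPM and AQP4 at 0 CPM. Of the pericyte markers, 5 of 8 reached 1 CPM, among them CSPG4 at 338 CPM, and of the epithelial markers 3 of 5, among them KRT18 at 263 CPM.

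Most ribosomal proteins are needed in equal numbers, and their messages are known for being co-ordinated mainly at translation. Most of these messages begin with a terminal oligopyrimidine (TOP) tract, a C followed by an unbroken run of pyrimidines, through which growth signals acting on mTOR and the binding protein LARP1 control how well they are translated. Assembly of the proteins on ribosomal RNA takes place largely in the nucleolus with the help of many assembly factors, and a message level alone does not give the rate of ribosome production. In these bulk libraries, fewer cells expressing a gene and less RNA per cell cannot be told apart.

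The start regions of the members that the results turn on are shown first, because the tract is what most of the family shares and the rule did not use. Sequences are RefSeq's on GRCh38.p14, 30 bases before and 20 bases from the annotated start, read 5′ to 3′ on the gene's strand, with the tract in capitals. A tract was counted where a C within 3 bases of an annotated start was followed by at least 4 more bases that were all C or T, on the gene's strand only.
RPS27A: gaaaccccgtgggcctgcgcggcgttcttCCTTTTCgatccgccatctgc
RPS24: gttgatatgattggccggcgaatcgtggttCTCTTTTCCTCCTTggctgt
RPL14: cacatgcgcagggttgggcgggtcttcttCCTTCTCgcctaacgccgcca
RPS6: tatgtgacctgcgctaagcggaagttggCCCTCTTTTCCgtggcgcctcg
RPL22L1: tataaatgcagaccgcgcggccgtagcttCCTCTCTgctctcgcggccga
RPS4X: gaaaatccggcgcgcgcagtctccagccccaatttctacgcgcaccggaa
RPL7L1: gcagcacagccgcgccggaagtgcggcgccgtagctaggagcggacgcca
RPS27L: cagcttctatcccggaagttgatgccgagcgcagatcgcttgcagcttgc
RPL26L1: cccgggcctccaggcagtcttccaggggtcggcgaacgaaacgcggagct
These windows lie at chr2:55232658-55232707 (RPS27A, plus strand), chr10:78033833-78033882 (RPS24, plus), chr3:40457309-40457358 (RPL14, plus), chr9:19380217-19380266 (RPS6, minus), chr3:170870176-170870225 (RPL22L1, minus), chrX:72277229-72277278 (RPS4X, minus), chr6:42879586-42879635 (RPL7L1, plus), chr15:63157458-63157507 (RPS27L, minus) and chr5:172958699-172958748 (RPL26L1, plus). The tract ran for 14 bases in RPS24, 11 bases in RPS6 and 7 bases in RPS27A, RPL14 and RPL22L1. Of the 65 members with an entry, 52 (80%) had a tract at 1 or more annotated starts, against 4322 of 27240 other genes (15.9%). Counted by start, the share was 65.4% of 81 member starts and 13.0% of all 35116 starts. The paralogs RPL7L1, RPS27L and RPL26L1 and the conventional members RPL4, RPL6, RPL15, RPS4X and RPS29 were among the 13 with no match, which says only that these letters were not at the annotated start.

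The members made up a small and narrow part of each library. Their summed counts were 3.30% ± 0.0404 (SD, n = 3, as for all values with ±) of all counts in Control, 3.00% ± 0.0174 in TNF, 3.36% ± 0.0220 in IL1b, 3.56% ± 0.164 in C5a and 3.66% ± 0.409 in Epinephrine. In the vesicle groups the share was 3.54% ± 0.0108 in EV-Control, 3.63% ± 0.236 in EV-TNF, 3.45% ± 0.0205 in EV-IL1b, 3.56% ± 0.0775 in EV-C5a and 3.52% ± 0.0625 in EV-Epinephrine. TNF had the lowest share of all groups, with each of its libraries below every other library. The order changes with the scaling. Under TMM scaling (trimmed mean of M-values, which sets the bulk of genes equal between libraries), the median member stood lowest in Control, at 0.914, 0.923 and 0.935 of its mean over all libraries, and at 1.02, 1.04 and 1.05 in TNF. With libraries scaled by their totals alone, the same medians were 0.938, 0.953 and 0.963 in Control and 0.874, 0.872 and 0.888 in TNF. The TMM factors behind this were 0.842 to 0.861 in TNF and 0.974 to 1.045 in the other libraries.

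Between groups the single members moved little. The ratio of the highest to the lowest group mean (TMM-scaled CPM) had a median of 1.18 over the 80 genes and ran from 1.09 to 1.53. Control was the lowest group for 49 members and EV-TNF the highest for 29. Without the libraries Epinephrine 2, C5a 2 and EV-TNF 3, which are described below, Control was lowest for 45, EV-TNF highest for 6 and TNF highest for 36 (21 with them). The widest ratio belonged to RPS29, a small-subunit protein named here after its values were seen, and the next to RPL7L1 (1.47), a nucleolar relative of RPL7.

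Across genes, levels were compared per kilobase of the median coding transcript (GENCODE 29). RPS2, a small-subunit protein near the mRNA channel, led with 1807 CPM per kilobase, followed by RPLP0, the base of the acidic stalk that recruits elongation factors (1590 CPM per kilobase), and RPL13 (1286 CPM per kilobase). Among the 3 lowest were RPL17 (14.2 CPM per kilobase) and RPL22L1 (35.7 CPM per kilobase). RPL26 stood at 47.9 CPM per kilobase, beside its paralog RPL26L1 at 45.1 CPM per kilobase. Members with many processed pseudogenes can lose reads that match a copy equally well. The 1620 ribosomal protein pseudogenes together held 0.0378% to 0.0580% of a library's counts, and how the counter treated such reads is not given in the sources used here.

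**Figure D1:**
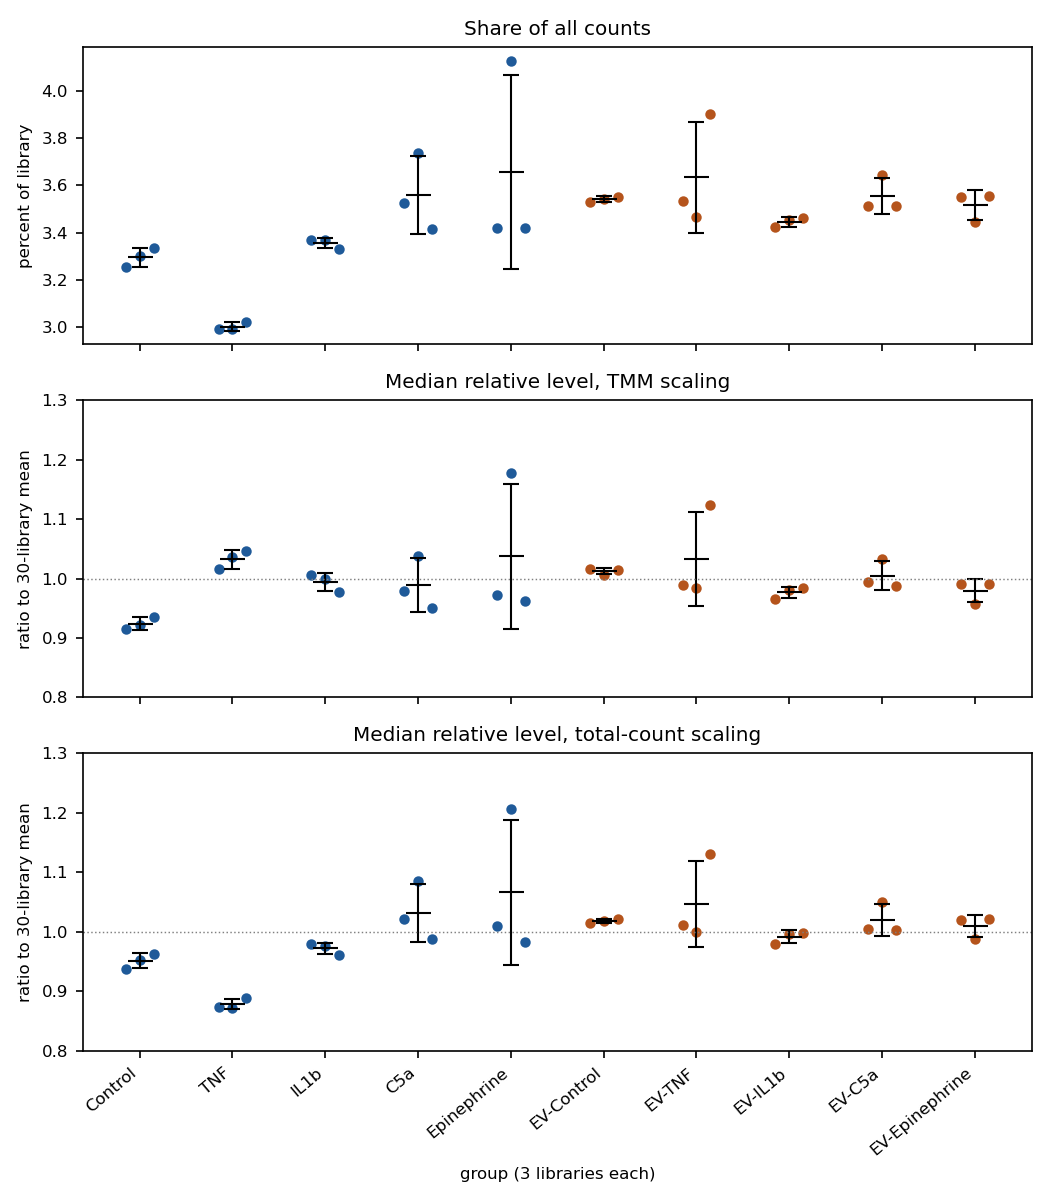
Ribosomal protein genes in each library: the 80 members' share of all counts (top, percent), and the median over members of each gene's CPM divided by its mean over 30 libraries, with TMM scaling (middle) and total-count scaling (bottom). Points are libraries (blue direct, orange vesicle), and black marks are group means with SD (n = 3). TNF lies lowest in the top and bottom panels and above Control in the middle panel, and replicate 2 of Epinephrine stands at 4.13% of counts.

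The libraries Epinephrine 2, EV-TNF 3 and C5a 2 stood apart from their groups in the members' own share of counts. Recounts without them therefore rest on libraries picked by the values under study. In Epinephrine 2 the members held 4.13% of counts, against 3.42% in each of the other libraries of that group. In EV-TNF 3 they held 3.90% against 3.53% and 3.47%, and in C5a 2 they held 3.74% against 3.52% and 3.42%. In EV-TNF 3 the excess was greater among the 25 members with transcripts under 600 bases (median relative level 1.20) than among the 55 longer ones (1.10). In Epinephrine 2 these values were 1.20 and 1.17, and in C5a 2 they were 1.09 and 1.03. RPS29, picked after its values were seen, shows the excess most clearly in C5a 2 and EV-TNF 3. Its TMM-scaled CPM were 94.6, 141 and 70.2 in C5a and 79.4, 82.5 and 156 in EV-TNF, against 80.8, 79.3 and 69.8 in Control. In Epinephrine RPS29 measured 92.9, 108 and 67.1 CPM, with Epinephrine 2 less clearly apart. It passed no test in the comparisons of C5a, EV-TNF and Epinephrine with their controls. Over all genes, the chi-square per gene against the group's other replicates was 12.9 and 10.1 for Epinephrine 2. It was 4.73 and 3.54 for EV-TNF 3, and 2.8 and 3.36 for C5a 2. Between EV-Control 1 and EV-Control 3, which were kept, it was 10.1. What set Epinephrine 2, EV-TNF 3 and C5a 2 apart was not tested. Counts of calls below are given with and without all 3, and so are named members whose call was lost or whose value moved by over 1.5 times.

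With TMM scaling, TNF raised the RNA of 40 of the 80 members and lowered none, but with total-count scaling the same comparison called 0 higher and 27 lower. Over all 15908 genes tested, TMM called 27.5% higher and 25.3% lower, and total-count scaling called 14.4% higher and 48.9% lower. The members' median log2 fold change was 0.15 under TMM, where the median of all genes was -0.01. Under total-count scaling it was -0.12, where the median of all genes was -0.29. The members' median lay 0.17 above that of all genes under either scaling, so its sign followed the scaling used. At an unadjusted p under 0.05, edgeR called 44 members higher and 0 lower with TMM, and DESeq2 called 47 higher and 0 lower (42 and 0 at an adjusted p under 0.05). With Epinephrine 2 and C5a 2 left out of the fit the TMM count was 60 higher and 1 lower (4669 and 4191 of all 16362 genes).

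RPS27A, whose product is ubiquitin fused to a small-subunit protein, had the largest rise with TNF. It measured 302, 316 and 319 CPM in Control and 398, 420 and 415 CPM in TNF. The groups did not overlap, and the log2 fold change was 0.40 ± 0.05 (SE; adjusted p = 1.90e-07). Under total-count scaling RPS27A was 0.12 on the log2 scale and did not pass. RPS24, mutated in some patients with Diamond-Blackfan anaemia, measured 329, 341 and 357 CPM in Control and 447, 427 and 439 CPM in TNF (log2 fold change 0.35 ± 0.06, adjusted p = 6.23e-05), and 0.08 without passing under total-count scaling. The acidic stalk proteins gave no such rise. RPLP0 measured 1310, 1289 and 1341 CPM in Control and 1254, 1284 and 1236 CPM in TNF, a log2 difference of -0.06 that missed the threshold under TMM, and RPLP0 fell by 0.34 under total-count scaling.

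**Figure D2:**
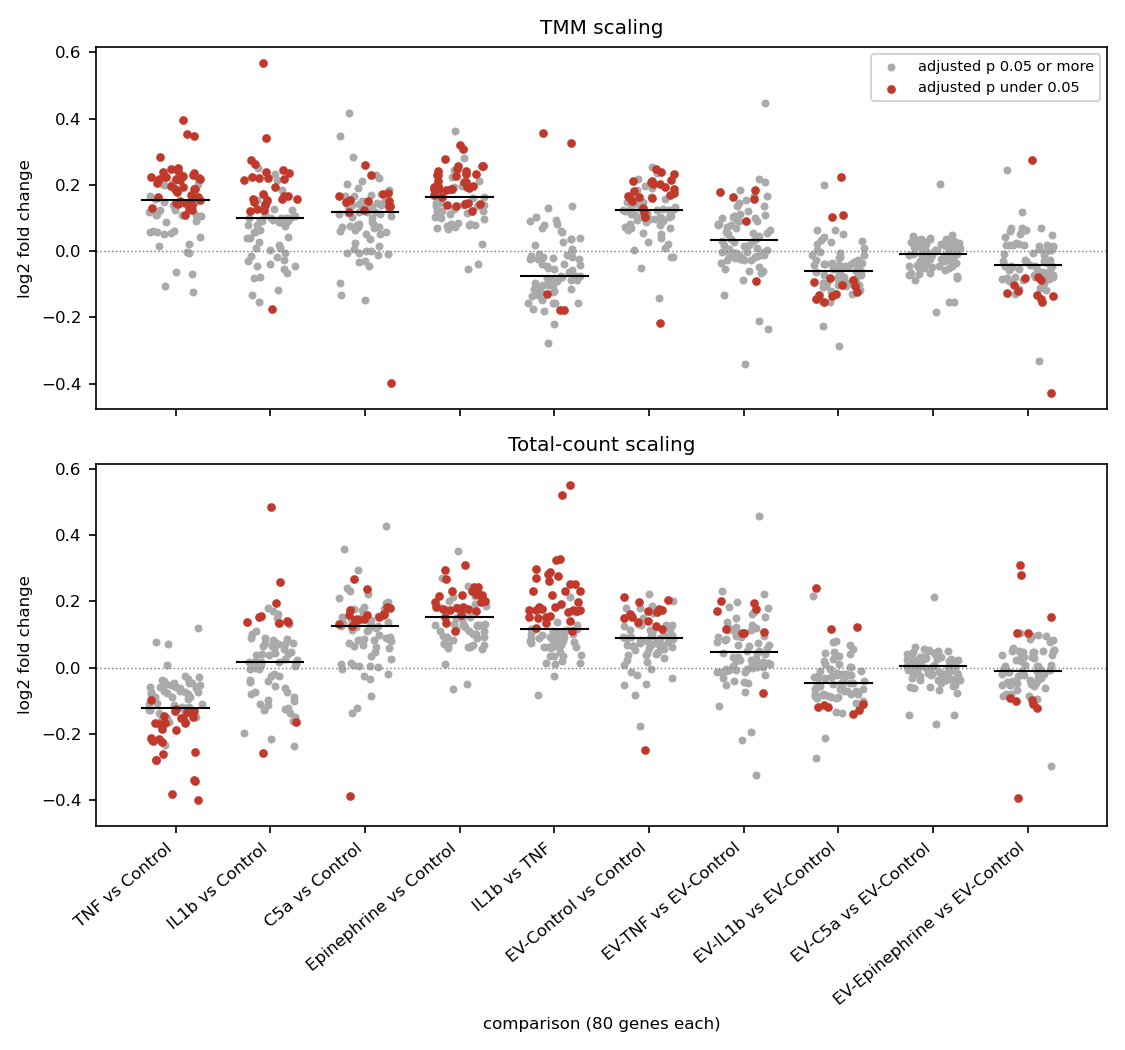
Log2 fold change of each of the 80 members in 10 comparisons under TMM scaling (top) and total-count scaling (bottom); red points have an adjusted p under 0.05 and black bars are medians. For TNF against Control the median goes from 0.15 to -0.12 between the panels, while for Epinephrine it is 0.16 and 0.15. The comparisons with Control share its 3 libraries, as the vesicle comparisons share those of EV-Control.

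IL1b raised 26 members and lowered 1 with TMM scaling (24% and 22.6% of all genes), against 9 higher and 2 lower with total-count scaling (18.3% and 29.1% of all genes). The median member changed by 0.10 on the log2 scale with TMM and by 0.02 with total counts. Without Epinephrine 2 and C5a 2 in the fit, 48 were higher and 1 was lower (4226 and 3719 of all 16362 genes). With only the groups compared in the fit 45 were higher and 4 lower (4075 and 3914 of all 14842 genes). The member that stood apart was RPL7L1, the relative of RPL7 that acts in the nucleolus. RPL7L1 measured 194, 191 and 205 CPM in Control and 288, 285 and 296 CPM in IL1b. The log2 fold change was 0.57 ± 0.04 (adjusted p = 4.23e-13), and 0.48 under total-count scaling, where it also passed. RPL22L1, the paralog of RPL22, measured 18.8, 17.3 and 17.4 CPM in Control and 21.2, 22.1 and 24.1 CPM in IL1b (log2 fold change 0.34 ± 0.10, adjusted p = 0.00608). RPS24 rose by 0.28 ± 0.06. RPS27L, a paralog of RPS27 that is a known p53 target, was the fall. It measured 85.0, 84.0 and 94.3 CPM in Control and 73.7, 82.3 and 76.0 CPM in IL1b, a log2 fold change of -0.17 ± 0.06 (adjusted p = 0.0217) that was lost without Control 3, IL1b 1 or IL1b 3.

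C5a raised 13 members and lowered 1 (11.8% and 10.8% of all genes), with a median log2 fold change of 0.12. With total-count scaling 17 were higher and 1 lower (2022 and 1617 of all 15908 genes), with a median of 0.13. The TMM count moved with the libraries in the fit. Without C5a 2 it was 2 higher and 0 lower, without Control 1 it was 2 higher and without Control 2 it was 5 higher. The median stayed at 0.12 without Control 1 and without Control 2, so the lost calls there do not show a smaller rise. With the libraries that stand apart left out of the fit together, 20 were higher and 0 lower and the median was 0.07. Over all 16362 genes of that fit 2017 were higher and 1607 lower. With only the groups compared in the fit 34 were higher and 2 lower (2355 and 2240 of all 14883 genes). RPL7L1 measured 228, 225 and 234 CPM in C5a, above all 3 Control libraries (log2 fold change 0.23 ± 0.04, adjusted p = 0.000166). RPS24 rose by 0.26 ± 0.06 and RPL14, a large-subunit protein, by 0.17 ± 0.05, a call lost without Control 1 or C5a 2. RPL17, next to the selection level, measured 10.6, 10.7 and 12.6 CPM in Control and 9.16, 6.56 and 9.79 CPM in C5a. Its log2 fold change was -0.40 ± 0.13 (adjusted p = 0.0263), and this call was lost without C5a 2 or Control 3.

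Epinephrine raised 35 members and lowered 0 (13.5% and 11.8% of all genes). With total-count scaling 28 were higher and 0 lower (1992 and 2007 of all 15908 genes). At an unadjusted p under 0.05 edgeR called 50 higher and 0 lower, and DESeq2 called 48 and 0 (32 and 0 at an adjusted p under 0.05). Without Epinephrine 2 the count was 20, without Control 1 it was 22 and without Control 2 it was 23. It was 16 with only the groups compared in the fit (1430 of all 14883 genes). With the libraries that stand apart left out 23 were higher (2466 of all 16362 genes) and the median log2 fold change of 0.16 became 0.07. RPS24 measured 408, 487 and 379 CPM, with 487 CPM in Epinephrine 2 (log2 fold change 0.32 ± 0.06, adjusted p = 0.000593). RPS23, a protein of the decoding centre, rose by 0.31 ± 0.08 and RPL24, at the subunit interface, by 0.28 ± 0.07. Both rested in part on Epinephrine 2, since without it they were 0.18 and 0.15 and still passed. RPL7L1 measured 227, 237 and 230 CPM, with no library apart (log2 fold change 0.24 ± 0.04, adjusted p = 6.95e-05).

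Over these comparisons, which share the Control libraries, 47 members were higher in 1 or more and 31 were called in none, while 39% of all genes tested were higher in 1 or more and 30.4% were called in none. There were 10 that were higher in all 4 under TMM (4.28% of all genes), among them RPL4, RPL6, RPL7L1, RPL10, RPL14, RPL15, RPS4X, RPS24 and RPS27A (RPL6 and RPL15 were named after their values were seen). Each of these needs its C5a call, and without Control 1 only 2 members were higher with C5a. With total-count scaling TNF raised 0 members, so none was higher in all 4. RPL4, a large-subunit protein that lines the exit tunnel, measured 1231, 1205 and 1271 CPM in Control, 1355, 1394 and 1450 CPM in TNF and 1469, 1475 and 1407 CPM in IL1b. Its log2 fold change was 0.18 ± 0.04 with TNF and 0.24 ± 0.04 with IL1b (adjusted p = 0.000770 and 2.41e-05). With total-count scaling RPL4 fell by 0.10 with TNF and passed. RPS4X, the X-linked small-subunit protein, gave 0.20, 0.24, 0.14 and 0.18 with TNF, IL1b, C5a and Epinephrine, and -0.08 with TNF under total-count scaling. Without Epinephrine 2 the RPS4X value with Epinephrine was 0.11. The C5a calls of RPL4, RPS4X and RPS27A were each lost without C5a 2, Control 1 or Control 2.

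By role, the 5S particle proteins are RPL5 and RPL11, which bind the p53 regulator MDM2 when ribosome assembly is disturbed. RPL5 measured 452, 453 and 454 CPM in Control and 536, 535 and 503 CPM in IL1b (log2 fold change 0.22 ± 0.05, adjusted p = 0.000330). RPL11 gave 0.06 in the same comparison and missed the threshold. With TNF, RPL5 gave 0.13 ± 0.05 (adjusted p = 0.0264), a call lost without any Control library, TNF 2 or TNF 3, and RPL11 0.21 ± 0.09 (adjusted p = 0.0520). The difference between these genes was not tested. RPS6, the small-subunit protein phosphorylated downstream of mTOR, measured 736, 745 and 765 CPM in Control and 873, 911 and 859 CPM in IL1b (log2 fold change 0.24 ± 0.08, adjusted p = 0.0174), a call lost without IL1b 2. FAU, whose product is a ubiquitin-like fusion, was called with TNF alone (0.22), and RPSA, also known as the laminin receptor, was called with none of the stimuli under TMM. The stalk proteins RPLP0, RPLP1 and RPLP2 likewise passed in none of the direct comparisons with Control under TMM. Their log2 fold changes there ran between -0.08 and 0.11. The subunits had like medians. With TNF, the large subunit had 23 of 48 members higher (median 0.16) and the small subunit 17 of 32 (median 0.15).

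IL1b and TNF were compared directly. With TMM, 2 members were higher in IL1b and 3 lower (19.9% and 21.4% of all genes), and with total-count scaling 35 were higher and 0 lower (40.9% and 12.8% of all genes). The TMM counts moved with the libraries in the fit. With only the groups compared in the fit they were 8 higher and 29 lower (3536 and 3591 of all 14618 genes). Without Epinephrine 2 and C5a 2 in the fit they were 7 and 22 (3565 and 3627 of all 16362 genes). Without IL1b 3 they were 3 and 0. The median of all genes in this comparison moved from 0.01 to 0.21 on the log2 scale, and the members' median from -0.08 to 0.12. RPL7L1 was higher in IL1b under either scaling, by 0.33 ± 0.04 (adjusted p = 1.15e-07) and by 0.52. RPL22, which binds a stem of ribosomal RNA and has extraribosomal roles, measured 55.5, 69.1 and 60.6 CPM in TNF and 81.9, 75.7 and 78.7 CPM in IL1b. Its log2 difference was 0.36 ± 0.11 (adjusted p = 0.0149) and was lost without TNF 1, TNF 3 or IL1b 1. RPS19, RPS27A and RPS15 were lower in IL1b by TMM (-0.18, -0.18 and -0.13) but had positive differences of 0.01, 0.02 and 0.06 by total counts.

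**Figure D3:**
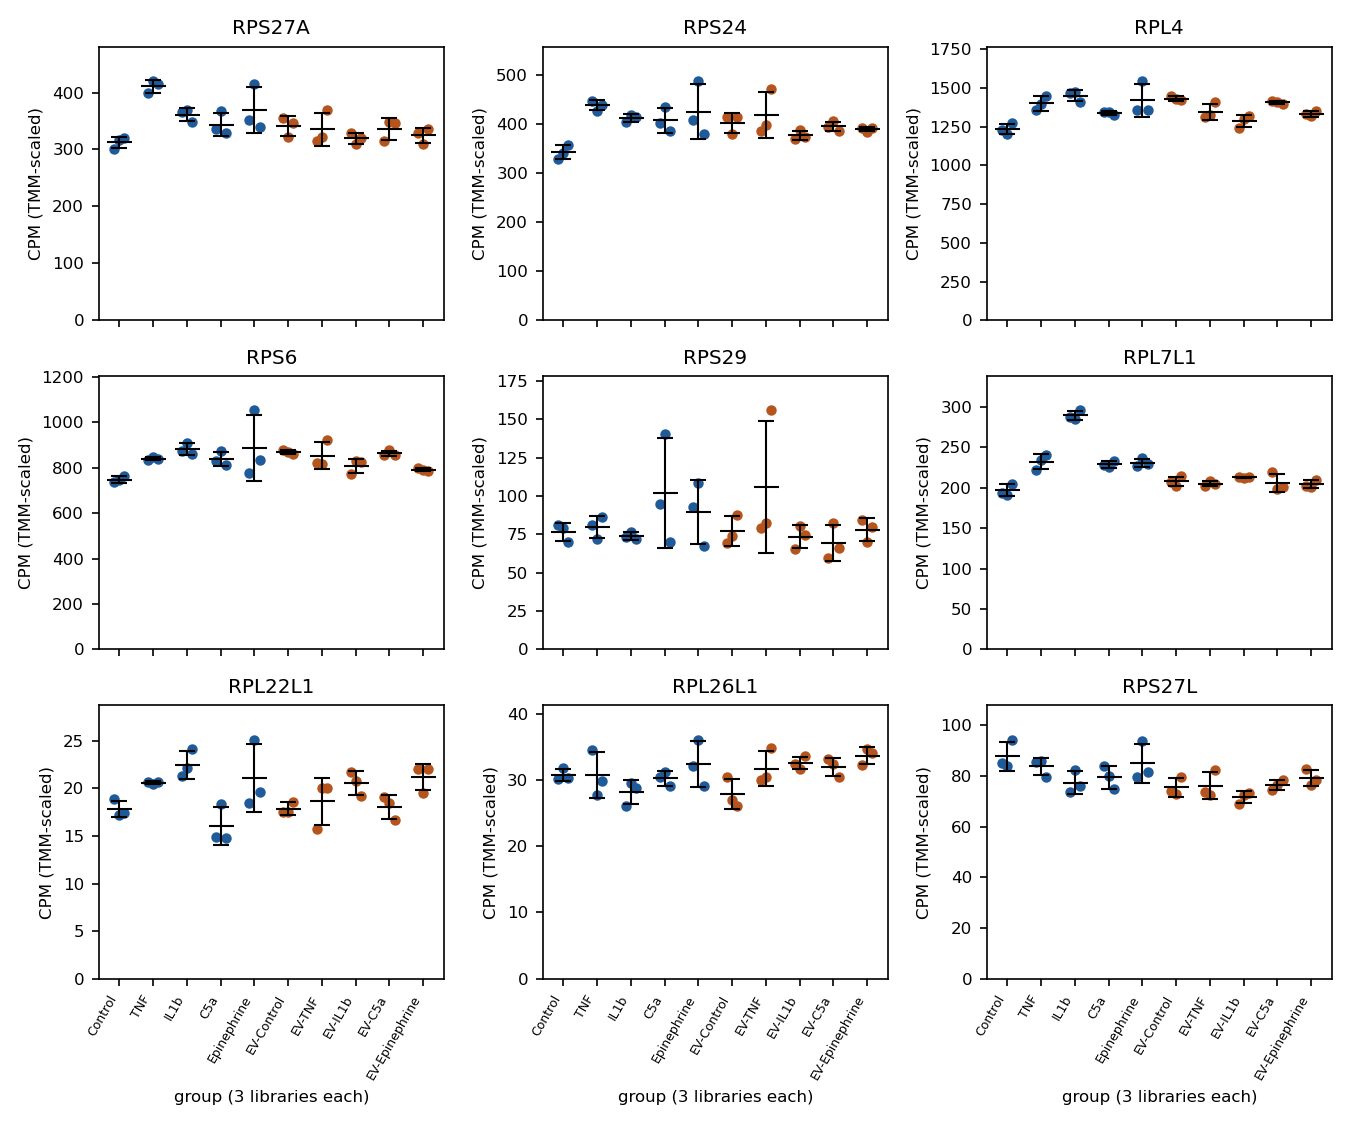
TMM-scaled CPM of 9 members in all 10 groups (points are libraries, blue direct and orange vesicle; black marks are means with SD, n = 3; axes start at 0). RPL7L1 is highest in IL1b (285 to 296 CPM) and RPS27A in TNF (398 to 420 CPM), and for RPS29 the libraries C5a 2 and EV-TNF 3 lie far above their groups.

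Cells given control vesicles were compared with cells given medium alone, in a fit of all 30 libraries. EV-Control had 22 members higher and 1 lower than Control (12.1% and 9.8% of all genes). Under total-count scaling 14 were higher and 1 lower (1612 and 2169 of all 16691 genes). The median member was 0.12 higher with TMM and 0.09 higher with total counts. The count was 14 without Control 1 and 14 without Control 2. It was 54 with the 3 libraries that stand apart left out (2310 of all 17144 genes). With only the groups compared in the fit it was 51 (1830 of all 14854 genes). RPS3A, a small-subunit protein near the mRNA exit, measured 343, 341 and 381 CPM in Control and 430, 410 and 424 CPM in EV-Control (log2 fold change 0.25 ± 0.05, adjusted p = 0.000201). RPS24 rose by 0.23 ± 0.07, a call lost without Control 1, Control 2, EV-Control 1 or EV-Control 3, and RPL4 rose by 0.21 ± 0.04. RPS27L was the fall, with 74.1, 72.8 and 79.7 CPM in EV-Control (log2 fold change -0.22 ± 0.06, adjusted p = 0.00431), a call lost without Control 3. RPL7L1 measured 208, 203 and 214 CPM in EV-Control, a log2 difference of 0.08 from Control that missed the threshold.

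Among the vesicle groups the differences from EV-Control were smaller. EV-TNF had 5 members higher and 1 lower (5.9% and 7.42% of all genes). The higher calls rested on 1 library, since without EV-TNF 3 there were 0 higher and 6 lower (743 and 911 of all 16363 genes). Without EV-TNF 2 there were 11 higher. The median log2 fold change was 0.03, and -0.03 without EV-TNF 3. The largest were RPL36 (0.19 ± 0.05) and RPS19 (0.18 ± 0.05), a small-subunit protein mutated in Diamond-Blackfan anaemia. Without EV-TNF 3 these were 0.10 and 0.10 and did not pass, and both calls were also lost without EV-Control 1 or EV-Control 2. RPL4 was lower in EV-TNF by 0.09 on the log2 scale, at 1311, 1322 and 1407 CPM against 1447, 1428 and 1421 CPM in EV-Control, a call lost without EV-Control 1, EV-TNF 1 or EV-TNF 2.

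EV-IL1b had 3 members higher and 11 lower (6.49% and 8.14% of all genes), with a median of -0.06 under TMM. Under total-count scaling 3 were higher and 6 lower (1186 and 1087 of all 15918 genes). Leaving out 1 library of the groups compared gave 6 to 10 lower, with the lowest counts without EV-Control 1 or EV-IL1b 2, and 0 or 1 higher. Without EV-TNF 3 in the fit 3 were higher and 18 lower (1041 and 1275 of all 16363 genes). The falls were small. RPL4 measured 1244, 1300 and 1321 CPM, below all EV-Control libraries (log2 fold change -0.15 ± 0.03, adjusted p = 2.19e-05). RPLP1, a stalk protein, measured 543, 520 and 545 CPM in EV-Control and 480, 487 and 492 CPM in EV-IL1b (log2 fold change -0.14 ± 0.03, adjusted p = 0.000893). RPL5 measured 501, 495 and 491 CPM in EV-Control and 443, 448 and 464 CPM in EV-IL1b (log2 fold change -0.14 ± 0.03, adjusted p = 0.00145).

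EV-Epinephrine had 1 member higher and 11 lower (9.12% and 10.5% of all genes). Under total-count scaling 5 were higher and 6 lower (1975 and 1305 of all 15918 genes). Without EV-Control 1 the lower count was 7. With EV-TNF 3 left out of the fit 2 were higher and 16 lower (1437 and 1697 of all 16363 genes). RPS3A fell to 375, 375 and 385 CPM (log2 fold change -0.15 ± 0.03, adjusted p = 0.000149) and RPL13 fell by 0.14 ± 0.03. RPL26L1, a near copy of RPL26, was the member that rose. It measured 30.4, 27.0 and 26.1 CPM in EV-Control and 32.2, 34.6 and 34.1 CPM in EV-Epinephrine (log2 fold change 0.28 ± 0.07, adjusted p = 0.00522), and 32.4, 31.7 and 33.6 CPM in EV-IL1b (0.22 ± 0.08, adjusted p = 0.0342). The EV-IL1b call was lost without any 1 of 5 of the 6 libraries compared. Reads could be shared between RPL26L1 and RPL26, whose own differences of -0.08 and -0.12 did not pass.

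EV-C5a had 0 members higher and 0 lower by edgeR (0.0126% and 0.0377% of all genes). Under total-count scaling 0 were higher and 0 lower (2 and 3 of all 15918 genes). DESeq2 also called 0, as did edgeR without EV-TNF 3 in the fit, and at an unadjusted p under 0.05 edgeR gave 1 higher and 3 lower. In all, 59 members were called in no vesicle comparison with EV-Control, as were 73.4% of all genes tested.

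The difference between the vesicle response and the direct response to each stimulus was tested as an interaction, in which Control, the stimulus, EV-Control and the vesicle group all enter. Under TMM, 0 members were higher and 17 lower for TNF (21.3% and 23.4% of all genes), 1 higher and 22 lower for IL1b (16.9% and 18.3%), 0 higher and 2 lower for C5a (5.87% and 6.05%) and 0 higher and 25 lower for Epinephrine (11.7% and 12.5%). At an unadjusted p under 0.05 edgeR called 1, 0 and 0 higher for TNF, C5a and Epinephrine, and DESeq2 called 1, 0 and 0. The TNF count turned over with total-count scaling, to 26 higher and 0 lower (41.3% and 12.5% of all genes), where the median of all genes was 0.31. For IL1b, total counts gave 1 higher and 9 lower (3770 and 2273 of all 16691 genes), with a median of all genes of 0.11. For C5a they gave 0 higher and 3 lower (947 and 1060 of all genes), with a members' median of -0.12. For Epinephrine they gave 0 higher and 22 lower (2337 and 1761 of all genes), with a members' median of -0.15. Under TMM the members' median for TNF was -0.11. The TNF interaction had 12 members lower without EV-TNF 1, 15 lower with a median of -0.07 without EV-TNF 2, and 32 lower with a median of -0.20 without EV-TNF 3. The Epinephrine interaction, with a median of -0.19, had 20 lower with a median of -0.10 without Epinephrine 2, and 40 lower without Epinephrine 1. Without the 3 libraries that stand apart, the lower counts were 51 for TNF, 44 for IL1b, 10 for C5a and 28 for Epinephrine. Over all 17144 genes of that fit, 3961, 3308, 1207 and 2353 were lower. With only the groups compared in the fit the members' lower counts were 26, 45, 14 and 26. Over all genes these were 3837 of 15668, 3169 of 15703, 1162 of 15643 and 1713 of 15661. RPL7L1 was lower in all 4 interactions under TMM, by 0.26, 0.53, 0.23 and 0.26 on the log2 scale for TNF, IL1b, C5a and Epinephrine, while with total-count scaling the TNF value was 0.03 and did not pass. In the vesicle groups themselves RPL7L1 ran from 199 to 219 CPM, below every direct stimulated library.

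The other gene groups of ribosome production give the scale of these changes. Among the ribosome assembly factors (55 genes of ribosomal RNA transcription, processing and subunit export), IL1b raised 52 and lowered 0 under TMM, with a median log2 fold change of 0.72, and 50 were higher and 1 lower with total counts. TNF raised 46 (median 0.49), and with total counts 32 were higher and 4 lower. Epinephrine raised 46 (median 0.32) and C5a raised 36 and lowered 1 (median 0.23). The members' medians in the same comparisons were 0.10, 0.15, 0.16 and 0.12. In EV-Control against Control 25 assembly factors were higher and 1 lower (median 0.15), where the members' median was 0.12. Against EV-Control, 1 was higher and 9 lower in EV-TNF (median -0.03). In EV-IL1b 4 were higher and 1 lower (median 0.02), and in EV-Epinephrine 2 and 15 (median -0.10). The members' medians there were 0.03, -0.06 and -0.04. DDX21, a nucleolar helicase, went from 198 ± 6.64 CPM in Control to 466 ± 14.6 CPM in IL1b (log2 fold change 1.24 ± 0.04, adjusted p = 1.19e-22). RRP12, which acts in subunit export, went from 35.5 ± 2.19 CPM to 78.2 ± 2.11 CPM with TNF (1.14 ± 0.06). PDCD2L, a relative of the RPS2 chaperone PDCD2, gave 1.22 ± 0.17 with IL1b from 3.45 ± 0.310 CPM. SBDS, which releases an anti-association factor from the large subunit, was the assembly factor that fell with C5a (-0.17 ± 0.05).

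Among the 29 tested translation factors and non-coding hosts with known or likely TOP tracts, TNF raised 18 and lowered 3 under TMM (2 and 11 with total counts), IL1b raised 19 and lowered 2 (10 and 3 with total counts), Epinephrine raised 12 and lowered 1 and C5a raised 4 and lowered 2. EIF3F, an initiation factor subunit, fell with TNF, IL1b, C5a and Epinephrine by 0.27, 0.34, 0.19 and 0.28 on the log2 scale. SNHG8, a small nucleolar RNA host, rose with IL1b by 0.73 ± 0.15. The 78 tested mitochondrial ribosomal protein genes build the separate ribosome of mitochondria. Of these, TNF raised 31 and lowered 9 under TMM (3 and 33 with total counts). IL1b raised 38 and lowered 4 (22 and 6 with total counts). Epinephrine raised 26 and lowered 0, and C5a raised 13 and lowered 0. Their medians under TMM were 0.13, 0.17, 0.12 and 0.07 with TNF, IL1b, Epinephrine and C5a. The cytosolic members' medians were 0.15, 0.10, 0.16 and 0.12, and the difference was not tested. In the comparison of EV-Control with Control, 4 of them were higher and 2 lower with TMM, and 2 higher and 5 lower with total counts. Of 30 tested regulators and sensors of the family, TNF raised 14 and lowered 11 under TMM (median 0.01) and 7 were higher and 17 lower with total counts (median -0.26). IL1b raised 13 and lowered 9 under TMM, and 10 were higher and 10 lower with total counts. OTUD4, a deubiquitinase, rose by 1.48 ± 0.05 with TNF and by 0.69 ± 0.05 with IL1b. CDKN1A, the p53-controlled inhibitor of the cell cycle, fell by 0.95 ± 0.05 with IL1b, and EIF4EBP2, a translation repressor controlled by mTOR, fell by 0.86 ± 0.06 with TNF.

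**Figure D4:**
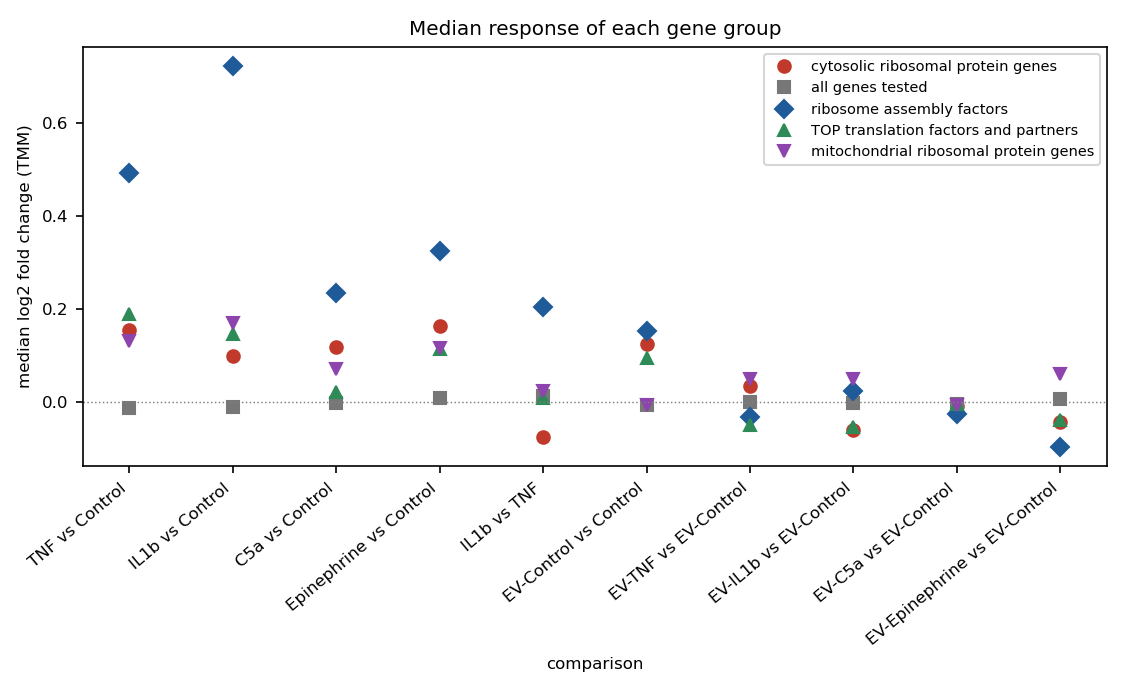
Median log2 fold change (TMM scaling) of the 80 cytosolic ribosomal protein genes, of 3 fixed gene groups and of all genes tested in 10 comparisons. Ribosome assembly factors reach 0.72 with IL1b, where the cytosolic ribosomal protein genes are at 0.10, and all medians lie near 0 for EV-C5a.

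Members with and without a tract at the annotated start are given side by side. With TNF, 23 of 52 members with a tract were higher (median log2 fold change 0.15) and 8 of 13 without one (median 0.15). With IL1b the counts were 14 of 52 (median 0.10) and 7 of 13 (median 0.12). With C5a they were 5 of 52 (median 0.12) and 5 of 13 (median 0.13). With Epinephrine they were 23 of 52 (median 0.16) and 7 of 13 (median 0.18). The difference between the classes was not tested. RPL7L1, RPL4 and RPS4X, printed or named above as having no tract, were among those higher with all 4 stimuli under TMM. RPS24 and RPS27A, which have a tract, were also among them.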

How the data were processed

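The authors deposited 1 table of raw read counts per gene for 30 libraries, with no normalization. Lysates passed through QIAshredder and RNA was purified with the RNeasy kit, per the labels' protocols, and 1 ng entered each NEBNext Ultra library. All carry 1 batch label. Per the submitters' processing notes, hg38, FastQC, STAR, DESeq2 and R 4.4.1 were used. The counting program, annotation and strand setting are not given in the sources used here. Of 63147 lines, 4 had no gene ID (0.00079% to 0.0016% of counts), 3 gene IDs were repeated and kept once, and 2 broken records (TTN, ANK2) were left out.

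Counts were analysed here with edgeR 4.0.16 in R 4.3.3 (filterByExpr, TMM, robust quasi-likelihood test, two-sided, Benjamini-Hochberg over all genes of a fit, threshold 0.05). Stimuli were fitted on the 15 direct libraries (15908 genes), vesicle groups on the 15 vesicle libraries (15918 genes), and EV-Control against Control and interactions on all 30 (16691 genes). SE is the log2 fold change divided by the square root of F. CPM values are scaled by TMM factors over all libraries, except those of the selection. Positions are those of RefSeq on GRCh38.p14, and lengths and overlaps those of GENCODE 29.

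Per comparison up to 3 members with the largest rises and 3 with the largest falls at an adjusted p under 0.05 were to be named, with members of set roles, the 3 highest and 3 lowest members, and up to 2 genes each way per list (at least 5 CPM). Results for some genes that this rule names are not reported here. Members, lists and roles were chosen with earlier results of these data known. Alternatives were RLE factors, total counts, TMM without the members, no low-count filter, DESeq2 1.42.0, a replicate block, only the groups compared, and GC and length corrections. Each library of the groups compared was also left out in turn. Leaving out Epinephrine 2, C5a 2 and EV-TNF 3 together was chosen after seeing the data. The fits were tested on simulated counts with known changes. No replicate pair was identical.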

Additional observations from a re-analysis of the deposited data

Results flagged for a closer look

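The following members differed between the vesicle response and the direct response by the interaction test (edgeR, TMM scaling, adjusted p under 0.05). Each value is the vesicle log2 response minus the direct log2 response, and Control and EV-Control libraries enter all of them. For TNF, RPS27A gave -0.42 and RPS24 -0.30, the latter lost without Control 1, EV-TNF 1 or EV-TNF 2. With total-count scaling these were -0.13 and -0.01 and neither passed. For IL1b, RPL7L1 gave -0.53, RPL4 -0.38 and RPL26L1 0.35, the last lost without IL1b 1. For C5a, RPL7L1 gave -0.23 and RPS4X -0.16, the latter lost without Control 2, C5a 3, EV-Control 1 or EV-C5a 3. For Epinephrine, RPS6 gave -0.38 and RPS3A -0.38. Without Epinephrine 2 the RPS6 value was -0.25 and still passed.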

How the results depend on the processing

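Counts are members called higher or lower, with the value named after each comparison. Calls over all genes moved with the setting as well, so a moved count alone does not single out the members. Relative log expression factors and TMM without the members left every count within 1.5 times of the reported one. Total-count scaling gave TNF 0 higher and 27 lower, IL1b 9 higher and 2 lower, and IL1b against TNF 35 higher and 0 lower. It gave EV-TNF 8 higher (1093 of all 15918 genes), EV-IL1b 6 lower, EV-Epinephrine 5 higher and 6 lower, and EV-Control 14 higher. It gave the TNF interaction 26 higher and 0 lower and the IL1b interaction 9 lower. Under it RPS19, RPS27A and RPS15 turned to 0.015, 0.016 and 0.065 in IL1b against TNF. Scaling factors account for these changes by construction. For the settings below the cause was not tested. Without the low-count filter TNF had 1 lower, C5a 29 higher, IL1b against TNF 4 higher, EV-TNF 2 lower, EV-IL1b 0 higher, EV-Epinephrine 2 higher, the TNF interaction 1 higher and the Epinephrine interaction 38 lower. DESeq2 gave EV-IL1b 1 higher and the TNF interaction 1 higher. The GC correction gave C5a 2 lower, EV-TNF 2 lower, EV-Epinephrine 2 higher and the C5a interaction 4 lower. The length correction gave C5a 29 higher, IL1b against TNF 8 lower, EV-TNF 2 lower and EV-Control 37 higher. It gave the TNF, IL1b, C5a and Epinephrine interactions 32, 34, 6 and 38 lower, with 0 higher for IL1b.

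The replicate block, with replicate number as a term, gave C5a 22 higher and IL1b against TNF 5 lower, and moved no other count by over 1.5 times. Libraries of the same number in the groups compared did not deviate together (correlations from -0.04 to 0.03), so no pairing was used in the main fits. Whether they share a culture or a day is not in the labels, and these correlations cannot show it.

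With only the groups compared in the fit, TNF had 2 lower, IL1b 45 higher and 4 lower, C5a 34 higher and 2 lower and Epinephrine 16 higher. IL1b against TNF had 8 higher and 29 lower, EV-TNF 2 higher and 0 lower, EV-Epinephrine 2 higher and EV-Control 51 higher. The TNF interaction had 1 higher and 26 lower, the IL1b interaction 45 lower and the C5a interaction 14 lower. With Epinephrine 2, C5a 2 and EV-TNF 3 left out, TNF had 1 lower, IL1b 48 higher, C5a 20 higher and 0 lower, Epinephrine 23 higher, and IL1b against TNF 7 higher and 22 lower. EV-TNF had 0 higher and 6 lower, EV-IL1b 18 lower, EV-Epinephrine 2 higher and EV-Control 54 higher. The TNF interaction had 1 higher and 51 lower, the IL1b interaction 44 lower and the C5a interaction 10 lower.

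Leaving out 1 library of the groups compared at a time gave these ranges of calls, with higher before lower. Libraries of the other groups in a fit were not left out in this way. Leaving out EV-TNF 3 gave EV-IL1b 18 lower and EV-Epinephrine 16 lower, which lies outside these ranges. IL1b had 18 to 25 and 0 to 1, C5a 2 to 17 and 0 to 1, and Epinephrine 20 to 52 higher. IL1b against TNF had 1 to 3 and 0 to 3, EV-TNF 0 to 11 and 0 to 6, EV-IL1b 0 to 1 and 6 to 10, EV-Epinephrine 1 to 2 and 7 to 12, and EV-Control 14 to 21 and 0 to 1. The TNF interaction had 0 to 1 and 12 to 32, the IL1b interaction 0 to 1 and 18 to 24, the C5a interaction 1 to 4 lower and the Epinephrine interaction 20 to 40 lower. TNF had 28 to 35 higher and 0 lower.

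As a share of counts without mitochondrially encoded genes, members held 3.37% in Control, 3.06% in TNF, 3.44% in IL1b, 3.62% in EV-Control, 3.54% in EV-IL1b and 3.63% in EV-Epinephrine. With pseudogenes added they held 3.34% in Control, 3.04% in TNF, 3.40% in IL1b, 3.59% in EV-Control and 3.49% in EV-IL1b. With 3 libraries a group and changes mostly under 0.3 on the log2 scale, a call that was lost does not show that groups were alike.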
